A study of Homo sapiens with 15 samples.

Results

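The genes described here encode the kinase that releases RNA polymerase II into productive elongation, the particle that holds this kinase inactive, and its elongation partners. They were taken by symbol from the table of read counts: CDK9, CCNT1, CCNT2, HEXIM1, HEXIM2, LARP7, MEPCE, AFF4 and ELL2. All 9 were found among the 58676 genes of the table, and all 9 were among the 14461 genes with enough counts to be tested. The counts came from 15 libraries made from total RNA of PATU-8988T cells, a human cell line established from a pancreatic carcinoma. Cells received 0.1% DMSO, 100 nM THZ1 or 100 nM YKL-5-124, both described by the series as inhibitors of CDK7, the kinase of the transcription factor TFIIH. Each compound was given for 4 h or 24 h, which with the DMSO control makes 5 groups of 3 libraries. No time is given for DMSO, and its 3 libraries were the control for both times, so all comparisons with DMSO share them. Nothing in the labels says that replicates were separate cultures, and the p-values cover the spread between libraries alone, which may be technical.

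P-TEFb is a heterodimer of the kinase CDK9 with cyclin T1 (CCNT1) or cyclin T2 (CCNT2). It phosphorylates the carboxy-terminal domain of RNA polymerase II and the factors that hold the polymerase paused near the start of genes. Part of the cellular P-TEFb is held inactive on the 7SK RNA, where HEXIM1 or its paralog HEXIM2 inhibits the kinase, LARP7 binds the end of the RNA and MEPCE methylates its cap. Released P-TEFb can enter the super elongation complex, in which AFF4 is the scaffold and ELL2 raises the rate of the polymerase. HEXIM1 mRNA is widely used as a marker of the response of cells to drugs that act on P-TEFb recruitment.

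The files give positions on GRCh38, and those of all 9 members were the same in GENCODE release 29. HEXIM1 (chr17:45148502-45152101, plus strand) consists of 1 exon of 3600 bases, and HEXIM2 (chr17:45160700-45170040, plus strand) begins 8598 bases after its end. CDK9 (chr9:127785679-127790787, plus strand) and MEPCE (chr7:100428790-100434126, plus strand) are also short genes, with 5109 and 5337 bases from start to end. LARP7 (chr4:112636964-112657592, plus strand) and CCNT1 (chr12:48688458-48716998, minus strand) span 20629 and 28541 bases. CCNT2 (chr2:134918235-134959342, plus strand) spans 41108 bases. The longest are the elongation partners, both on the minus strand of chromosome 5: ELL2 (chr5:95885098-95962071) spans 76974 bases and AFF4 (chr5:132875379-132963634) spans 88256 bases.

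The promoters of 3 members are shown as examples of different patterns. HEXIM1 moved in opposite directions under the compounds, and MEPCE fell most under THZ1. AFF4, like LARP7 and ELL2, passed the test at 24 h of THZ1 but not at 4 h. The sequences are from RefSeq (GRCh38.p14), whose table held entries for 8 of the 9 members and none for ELL2. They run 5′ to 3′ on the gene's strand. Shown are the 250 bases before the start for HEXIM1 (chr17:45148225-45148474, plus strand) and AFF4 (chr5:132963635-132963884, minus strand), and the 30 bases around the TATA-like letters for MEPCE (chr7:100428752-100428781, plus strand). Capitals mark the run of TATA-like letters.
HEXIM1: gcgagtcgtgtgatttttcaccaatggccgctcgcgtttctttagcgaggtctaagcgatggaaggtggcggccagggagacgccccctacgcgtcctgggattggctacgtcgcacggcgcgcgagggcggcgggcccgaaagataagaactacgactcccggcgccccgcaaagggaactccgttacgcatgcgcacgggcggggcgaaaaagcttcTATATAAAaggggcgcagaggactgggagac
AFF4: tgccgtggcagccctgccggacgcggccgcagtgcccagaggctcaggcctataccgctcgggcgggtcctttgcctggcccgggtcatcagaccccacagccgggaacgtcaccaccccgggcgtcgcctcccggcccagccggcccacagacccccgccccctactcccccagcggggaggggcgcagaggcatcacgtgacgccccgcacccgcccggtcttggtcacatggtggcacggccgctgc
MEPCE: ctcgctggTATATAAgtcggcgtggcgccg

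The letters TATATAA, searched on both strands in the 250 bases before each start, were found before HEXIM1, where they begin 31 bases before the start, and before 1 of the 3 listed starts of MEPCE, where they begin 30 bases before it. Of 35116 such windows in the table, 2.42% hold them. TATAAA, which can overlap TATATAA, was found before HEXIM1 alone among the 8 members with an entry and is held by 10.7% of windows. GCATGCGC was found before HEXIM1, MEPCE and CCNT2 (2.63% of windows) and CACGTG before AFF4, CCNT1 and MEPCE (6.35%). CCAAT was found in 6 of the 8 (32.01% of windows) and GGGCGG in 7 (42.6%). A member was counted if any of its listed starts held the letters, and some members have several starts. The shares are of single windows, so the counts of members are not directly comparable with them. These are matches of letters and say nothing of binding.

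In DMSO the member with the highest level per length of exon was MEPCE, at 22.7 ± 0.462 CPM (counts scaled to a common library size) per kb (SD, n = 3 libraries, as for all group values). CDK9 followed at 15.1 ± 2.12 and HEXIM1 at 11.9 ± 1.42 CPM per kb, with overlapping libraries. AFF4 had 9.47 ± 0.753 CPM per kb and CCNT1 9.05 ± 0.205, again overlapping, and the highest AFF4 library reached the level of the lowest HEXIM1 library at 10.2 CPM per kb. ELL2, CCNT2 and LARP7 lay together at 4.30 ± 0.854, 4.16 ± 0.191 and 4.16 ± 0.0672 CPM per kb. HEXIM2 stood far below the others at 0.142 ± 0.0814 CPM per kb, with 21 counts in the 3 DMSO libraries together. The 7SK RNA itself, listed under the symbol RN7SK in 2 rows of the table, had 0 counts in every library, so its level was not measured here.

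The libraries held 15567057 to 22869590 counts each, lowest in the THZ1 24 h group (15567057 to 18114103). The make-up of that group also differed: mRNAs of cytosolic ribosomal proteins took a mean of 22.2% of its counts against 10.8% in DMSO, and its TMM scaling factors averaged 0.544 against 1.19. Genes with under 2.5 kb of exon had a median log2 fold change of 0.61 there, and genes with over 7.5 kb one of −0.79, both for THZ1 24 h against DMSO. The part of this shift with length in the members' values was not tested. Fold changes are therefore given relative to TMM scaling unless another is named. With library totals in place of TMM, the median over all genes for THZ1 24 h against DMSO shifted by −1.13 on the log2 scale, and with ribosomal protein mRNAs as the reference by −2.19. The epithelial markers KRT8 and KRT18 were abundant in DMSO (910 to 1183 and 431 to 442 CPM). The ductal keratin KRT19 was at 0 in all DMSO libraries, and CDH1 was at 0.193 to 0.295 CPM there. The 7 epithelial and ductal markers summed to 1352 to 1640 CPM in DMSO and 2727 to 3557 CPM after 24 h of THZ1. The 6 mesenchymal markers also summed higher there (166 to 175 CPM in DMSO, 276 to 305 CPM). Nearly all of that sum in DMSO was VIM, at 165 to 173 CPM. Mitochondrial genes took 3.46% to 4.44% of the counts of the THZ1 24 h group against 0.862% to 1.25% in DMSO. The part of these shifts in the members' values was not tested. The immune genes CD3E and CD68 had 0 counts throughout. In these bulk samples fewer cells of a type and less RNA per cell cannot be told apart.

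After 4 h of THZ1, 6 of the 9 mRNAs fell (edgeR's quasi-likelihood test, Benjamini-Hochberg adjusted p under 0.05) and 0 rose; of all genes tested, 25.1% fell and 16.9% rose. The count of 0 was the same in edgeR at an unadjusted p under 0.05 and in DESeq2. The 6 were both cyclins, CDK9, both HEXIM genes and MEPCE, while LARP7, AFF4 and ELL2 did not pass the test. After 24 h of THZ1, 8 members had fallen and 1, HEXIM2, had risen, against a background of 44.0% lower and 32.3% higher. The members' median log2 fold change was −1.18 at 4 h and −1.22 at 24 h, beside medians of 0 and −0.37 over all genes tested. After 4 h of YKL-5-124 only MEPCE fell and 0 rose, where 0.463% of all genes fell and 0.0553% rose. In edgeR at an unadjusted p under 0.05 the count of higher members was 1 (CCNT1), and in DESeq2 it was 0. After 24 h of YKL-5-124, HEXIM1 and AFF4 rose and LARP7 fell, so that 2 members were higher and 1 lower against a background of 8.92% higher and 12.7% lower. The members' median log2 fold change was 0.07 at 4 h and 0.09 at 24 h of YKL-5-124, beside 0.00 and −0.04 over all genes.

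**Figure D1:**
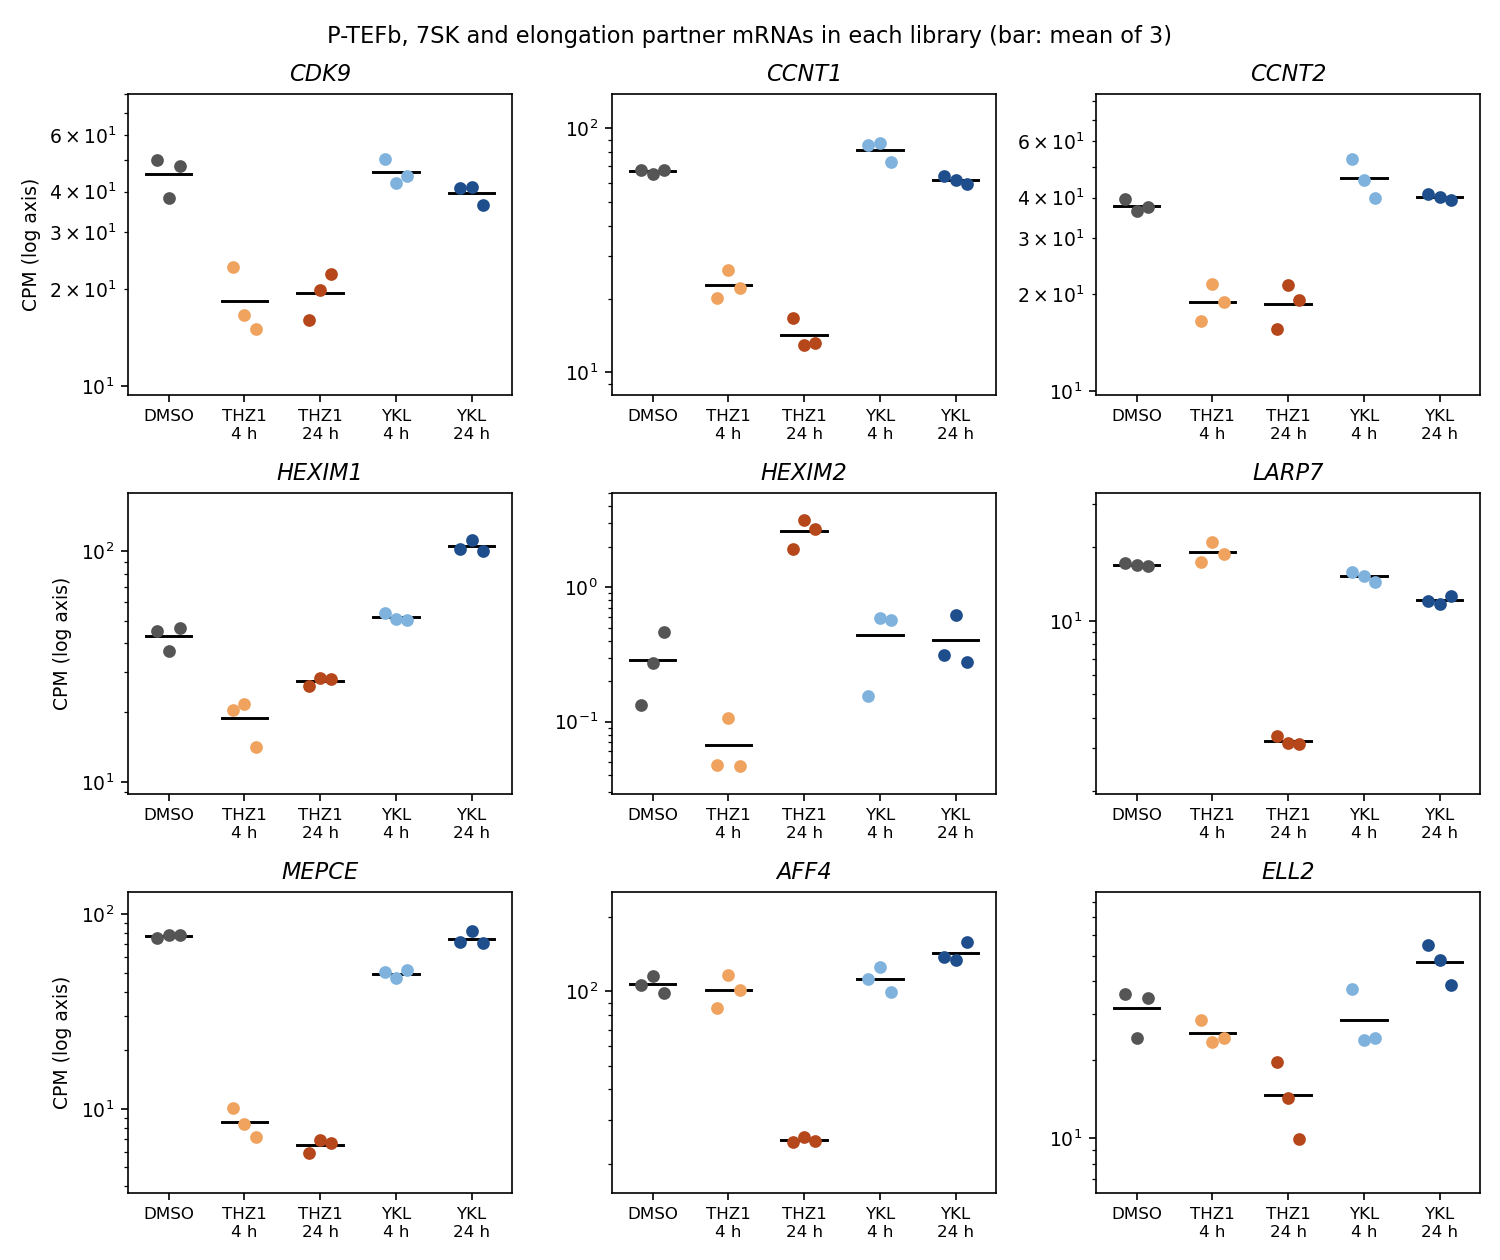
Levels of the 9 mRNAs in each library, in CPM on a log axis, by group; each point is 1 library and each bar the mean of 3. MEPCE, CCNT1, CCNT2 and CDK9 are low in both THZ1 groups, LARP7 and AFF4 in the THZ1 24 h group alone, and HEXIM1 is highest in the YKL-5-124 24 h group.

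The kinase subunit and both cyclins of P-TEFb fell within 4 h of THZ1. CDK9, the catalytic subunit, was at 50.0, 38.1 and 47.9 CPM in DMSO and at 23.4, 16.6 and 15.03 CPM after 4 h of THZ1. It stayed at 16.1, 19.8 and 22.2 CPM after 24 h, so that no library of either THZ1 group reached the lowest DMSO library. Under edgeR's quasi-likelihood test the fall was 2.47-fold at 4 h (log2 fold change −1.30, SE 0.17, adjusted p = 1.89e-05) and 2.34-fold at 24 h (−1.22, SE 0.17, adjusted p = 9.76e-06). After YKL-5-124 CDK9 was at 45.9 ± 4.02 CPM at 4 h and 39.6 ± 2.71 at 24 h, in both cases overlapping the DMSO libraries. The 95% intervals of those log2 fold changes, −0.33 to 0.37 and −0.55 to 0.16, leave out the size of the THZ1 falls.

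CCNT1, the cyclin that binds most of the cell's CDK9 and that HIV Tat recruits, fell at both times. It was at 67.6, 65.0 and 67.6 CPM in DMSO, at 20.1, 26.4 and 22.2 CPM after 4 h of THZ1, and at 16.7, 13.0 and 13.3 CPM after 24 h. The 3 groups did not overlap and formed a descending order. The log2 fold change to DMSO was −1.54 at 4 h (SE 0.13, edgeR adjusted p = 1.39e-07) and −2.22 at 24 h (SE 0.13, adjusted p = 5.79e-10). The further fall between the times, −0.68 (SE 0.13), passed the same test (adjusted p = 2.65e-04). After 4 h of YKL-5-124 CCNT1 was at 85.7, 86.9 and 72.7 CPM, each above all DMSO libraries, but the log2 difference of 0.29 (95% interval 0.04 to 0.55) did not pass the test over all genes (adjusted p = 0.41).

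CCNT2, the alternative cyclin, was at 37.8 ± 1.74 CPM in DMSO, 19.0 ± 2.46 after 4 h of THZ1 and 18.7 ± 2.91 after 24 h. Both THZ1 groups lay wholly below DMSO, with log2 fold changes of −0.99 (SE 0.14, edgeR adjusted p = 3.54e-05) and −1.01 (SE 0.14, adjusted p = 8.30e-06). Between the times CCNT2 and CDK9 had log2 differences of −0.02 and 0.08 with 95% intervals of −0.32 to 0.28 and −0.29 to 0.45. Both signs depend on the scaling: with library totals both genes were lower at 24 h than at 4 h, by −0.89 and −0.78. After YKL-5-124 CCNT2 was at 45.9 ± 6.51 CPM at 4 h and 40.2 ± 0.934 at 24 h, and neither difference from DMSO passed the test.

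The HEXIM1 and HEXIM2 mRNAs, which encode the inhibitors of P-TEFb, both fell after 4 h of THZ1 and had opposite signs at 24 h. HEXIM1 was at 44.9, 36.8 and 46.3 CPM in DMSO and at 20.5, 21.7 and 14.2 CPM after 4 h of THZ1, without overlap. It was at 26.1, 28.3 and 28.0 CPM after 24 h of THZ1, above every 4 h library and below every DMSO library. The fall at 4 h was 2.27-fold (log2 fold change −1.18, SE 0.14, edgeR adjusted p = 8.98e-06). The smaller fall at 24 h (−0.64, SE 0.14, adjusted p = 8.53e-04) did not pass with RLE factors (−0.31), with upper-quartile factors (−0.24) or in DESeq2 (−0.31). The rise from 4 h to 24 h of THZ1 (0.54, SE 0.15, adjusted p = 0.00371) turned into a fall with library totals (−0.32) and against ribosomal protein mRNAs (−1.13).

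YKL-5-124 moved HEXIM1 the other way. Its level was 53.9, 50.9 and 50.3 CPM after 4 h and 103, 112 and 100.2 CPM after 24 h. Every 4 h library lay above every DMSO library, but the log2 difference of 0.28 (95% interval −0.02 to 0.57) did not pass the test. The rise at 24 h was 2.46-fold over DMSO (log2 fold change 1.30, SE 0.14, edgeR adjusted p = 2.20e-05), with no overlap between groups, and 2.03-fold over 4 h of the same compound (1.02, SE 0.14, adjusted p = 1.65e-04). Over the 9 other settings tried the rise over DMSO was between 1.30 and 1.90 on the log2 scale and passed in each. Within the members this was the largest rise that YKL-5-124 gave at either time, and it stood at the 95.9th percentile of the fold changes of all genes tested.

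HEXIM2 was close to the limit of detection in all groups but 1. The libraries held 3, 7 and 11 counts in DMSO and 1, 2 and 1 counts after 4 h of THZ1. The THZ1 24 h libraries held 16, 31 and 26 counts, from fewer reads in all. The YKL-5-124 groups held 4 to 16 counts a library and overlapped DMSO. The summed counts at 24 h of THZ1 gave a ratio to DMSO of 9.06 (95% binomial interval 5.51 to 15.5, counting error only), and edgeR's test a log2 fold change of 3.14 (SE 0.51, adjusted p = 4.49e-05). Against ribosomal protein mRNAs the rise was 0.99 and did not pass (adjusted p = 0.111). The fall at 4 h rests on 4 counts, with a ratio of 0.224 (95% interval 0.0558 to 0.663). Its adjusted p of 0.0425 in edgeR was lost, at 0.0519 to 0.168, on leaving out DMSO replicate 2, DMSO replicate 3 or any 1 of the THZ1 4 h libraries. HEXIM2 reached the level needed for testing (0.509 CPM) in 7 of 15 libraries, 3 of them THZ1 24 h, and also passed the filter without these. Per kb of exon it rose from 0.0120 of the HEXIM1 level in DMSO to 0.167 after 24 h of THZ1, so HEXIM1 remained the more abundant mRNA in every library.

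Of the 7SK particle's own proteins, MEPCE fell at both times of THZ1 and LARP7 passed the test at 24 h alone. MEPCE, the enzyme that caps 7SK RNA, was at 75.7, 78.5 and 78.2 CPM in DMSO and at 10.1, 8.33 and 7.12 CPM after 4 h of THZ1. At 24 h it was at 5.92, 6.94 and 6.68 CPM, far below DMSO as well. The falls were 9.11-fold (log2 fold change −3.19, SE 0.13, edgeR adjusted p = 2.74e-10) and 11.9-fold (−3.57, SE 0.14, adjusted p = 9.90e-12). MEPCE was the member with the largest fall at both times, and at 4 h its fold change ranked 291 from the lowest of the 14461 genes tested. Over the other settings its log2 fold change lay between −3.73 and −3.10 at 4 h and between −5.76 and −3.17 at 24 h. The further fall from 4 h to 24 h (−0.38, adjusted p = 0.0224) did not pass with RLE or upper-quartile factors, in DESeq2, with only these groups fitted, or without replicate 1 of the 4 h group or replicate 1 or 3 of the 24 h group.

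MEPCE was also the 1 member that fell after 4 h of YKL-5-124. It was at 50.3, 47.0 and 51.6 CPM there, all below DMSO, and at 71.7, 81.9 and 71.0 CPM after 24 h, where it overlapped DMSO. The fall at 4 h was 1.56-fold (log2 fold change −0.64, SE 0.12, edgeR adjusted p = 0.0213). This call was lost on leaving out any 1 of the 6 libraries (adjusted p 0.0509 to 0.172), though the value moved only between −0.67 and −0.60. The rise from 4 h to 24 h of YKL-5-124, 0.59 on the log2 scale (SE 0.12, adjusted p = 0.00237), passed under all settings and without any 1 library. From start to end, MEPCE overlaps by 203 bases with ZCWPW1 on the other strand, which had 313 counts in all libraries together.

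LARP7 is the protein that protects the end of 7SK RNA. It was at 17.3, 17.0 and 16.7 CPM in DMSO and at 17.4, 20.9 and 18.8 CPM after 4 h of THZ1. At 24 h it was at 3.38, 3.16 and 3.13 CPM. The value at 4 h lay slightly above DMSO in each library, with a log2 difference of 0.17 (95% interval −0.08 to 0.41) that did not pass the test. The fall at 24 h was 5.27-fold (log2 fold change −2.40, SE 0.14, edgeR adjusted p = 3.43e-10). After YKL-5-124 LARP7 was at 15.2 ± 0.743 CPM at 4 h and 12.1 ± 0.464 at 24 h. The fall at 24 h was 1.403-fold (−0.49, SE 0.12, adjusted p = 0.00772), did not pass with library totals (−0.34) or without the filter on low counts (−0.49), and was 0.10 against ribosomal protein mRNAs. From start to end, LARP7 overlaps by 32 bases with ZGRF1 on the other strand, and no source used here gives the strand setting of the counting.

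AFF4, the scaffold of the super elongation complex, had the highest CPM of the members in DMSO before correction for length. It was at 106, 116 and 98.8 CPM in DMSO and at 85.7, 116 and 102 CPM after 4 h of THZ1, overlapping. At 24 h it was at 24.4, 25.7 and 24.7 CPM. The log2 difference at 4 h was −0.08, with a 95% interval of −0.34 to 0.18. The fall at 24 h was 4.29-fold (−2.10, SE 0.13, edgeR adjusted p = 1.09e-09) and lay between −4.30 and −1.71 under the other settings. With YKL-5-124 AFF4 reached 137, 134 and 159 CPM at 24 h, above every DMSO library, a rise of 1.34-fold (0.42, SE 0.12, adjusted p = 0.0242). That call was lost without DMSO replicate 1, DMSO replicate 3 or YKL-5-124 24 h replicate 3 (adjusted p 0.0723 to 0.106).

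ELL2 encodes a factor that suppresses pausing of the polymerase. Its libraries were at 35.7, 24.3 and 34.5 CPM in DMSO. With THZ1 they were at 28.5, 23.4 and 24.3 CPM at 4 h and at 19.7, 14.3 and 9.91 CPM at 24 h. Only the 24 h group lay wholly below DMSO. It fell 2.16-fold there (log2 fold change −1.11, SE 0.24, edgeR adjusted p = 6.92e-04), while the difference at 4 h was −0.31 (95% interval −0.81 to 0.18). The 4 h difference did pass with library totals (−0.56, adjusted p = 0.0468), against ribosomal protein mRNAs (−0.81, adjusted p = 0.00171) and with the length covariate (−0.29, adjusted p = 0.0474). In the YKL-5-124 24 h group the libraries were at 55.0, 48.3 and 38.7 CPM, each above DMSO. That difference of 0.59 (SE 0.23) did not pass at an edgeR adjusted p of 0.0828. It passed under 7 of the 9 other settings, among them the fit with the replicate number as a block (adjusted p = 0.0112). With any 1 of the 6 libraries left out it did not pass (edgeR adjusted p 0.0641 to 0.249).

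**Figure D2:**
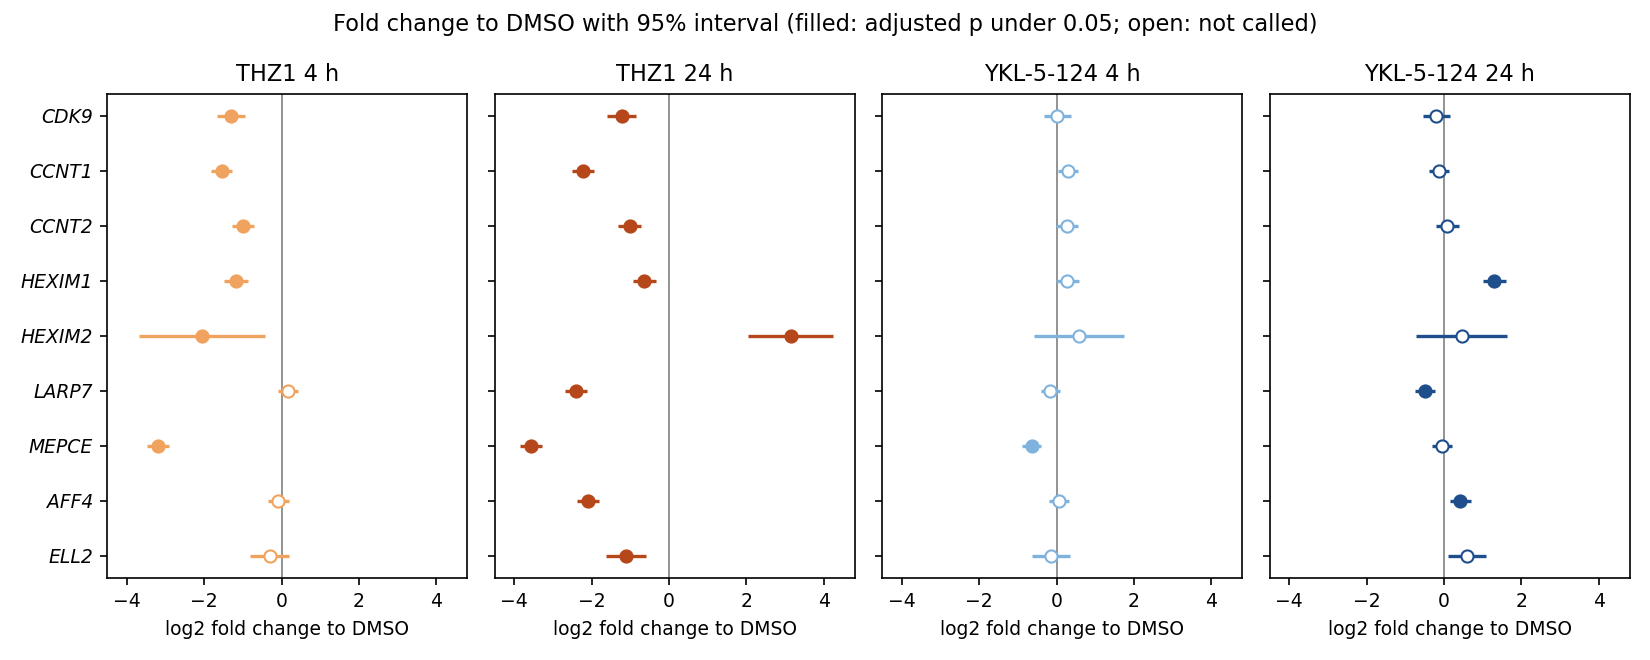
Log2 fold change of each member to DMSO for the 4 treated groups, with the 95% interval from the edgeR fit; filled points have an adjusted p under 0.05. In the THZ1 4 h panel 6 points are filled and all lie left of 0; in the THZ1 24 h panel all 9 are filled, with HEXIM2 alone right of 0; in the YKL-5-124 panels 1 and 3 points are filled.

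The compounds were compared with each other at the same dose and time, 2 pairs of groups in all. At 4 h, 6 members were lower after THZ1 than after YKL-5-124 and 1, LARP7, was higher, where 21.9% of all genes were lower and 11.4% higher. MEPCE differed by −2.54 on the log2 scale (SE 0.13, edgeR adjusted p = 2.79e-09), CCNT1 by −1.84, HEXIM1 by −1.46, CDK9 by −1.32 and CCNT2 by −1.27. In each of these the groups did not overlap. HEXIM2 differed by −2.64, a call lost without THZ1 4 h replicate 3 (adjusted p = 0.0508). The LARP7 difference was 0.33 with an edgeR adjusted p of 0.0410. This call was lost on leaving out THZ1 4 h replicate 2 or 3 or any 1 of the YKL-5-124 4 h libraries. The difference passed under 5 of the 9 other settings. It did not pass with library totals (0.09), without the filter on low counts or with only these groups fitted. Against ribosomal protein mRNAs it was −0.08. For AFF4 and ELL2 no difference was detected at 4 h, with 95% intervals of −0.41 to 0.12 and −0.66 to 0.33.

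At 24 h the compounds differed in all 9 members: 8 were lower after THZ1 and HEXIM2 was higher, against 44.1% lower and 31.8% higher among all genes. Among the 8 lower members the largest differences were those of MEPCE (−3.52, SE 0.14), AFF4 (−2.52, SE 0.13) and CCNT1 (−2.11, SE 0.13), with edgeR adjusted p of 1.12e-11, 1.80e-10 and 1.03e-09. HEXIM1, at 27.4 ± 1.19 CPM after THZ1 and 105.0 ± 6.40 after YKL-5-124, differed by −1.94 (SE 0.15, adjusted p = 8.48e-09). LARP7, ELL2, CCNT2 and CDK9 differed by −1.91, −1.70, −1.10 and −1.03. The HEXIM2 difference of 2.68 came to −0.03 against ribosomal protein mRNAs. Adjusting over both pairs together left every call as it was.

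**Figure D3:**
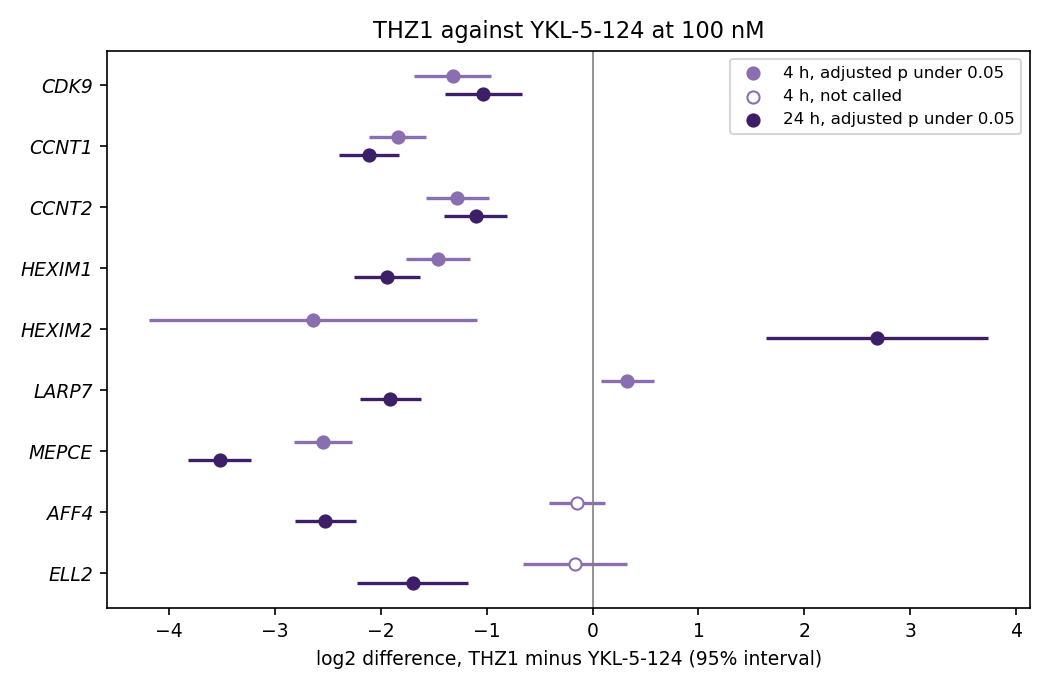
Log2 difference between THZ1 and YKL-5-124 for each member at 4 h (light) and 24 h (dark), with 95% intervals; open points did not pass the test. AFF4 and ELL2, not called at 4 h, move to −2.52 and −1.70 at 24 h. LARP7 moves from 0.33 to −1.91, and HEXIM2 also changes side.

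From 4 h to 24 h of THZ1, 5 members fell and 2 rose, where 35.7% of all genes fell and 31.4% rose. LARP7 fell by 2.56 and AFF4 by 2.02 on the log2 scale, CCNT1 by 0.68, ELL2 by 0.80 and MEPCE by 0.38, while HEXIM2 rose by 5.20 and HEXIM1 by 0.54. The ELL2 fall did not pass with RLE factors (−0.56) or upper-quartile factors (−0.43). The HEXIM2 value starts from 4 counts and is not a bound. From 4 h to 24 h of YKL-5-124, 3 members rose and 1 fell, where 9.22% of all genes rose and 11.9% fell. HEXIM1, ELL2 (0.73, edgeR adjusted p = 0.0348) and MEPCE rose and CCNT1 fell (−0.41, adjusted p = 0.0258). The ELL2 call was lost without YKL-5-124 4 h replicate 2 or 3 or YKL-5-124 24 h replicate 1 or 2. The CCNT1 call was lost without YKL-5-124 4 h replicate 1 or 2 or any 1 of the 24 h libraries, and was 0.26 against ribosomal protein mRNAs.

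The interaction of compound and time asks whether the difference between the compounds changed from 4 h to 24 h. It passed for 5 members, 4 lower and 1 higher, against 31.0% lower and 26.6% higher among all genes. AFF4 (−2.38, SE 0.18), LARP7 (−2.24, SE 0.18) and ELL2 (−1.53, SE 0.34) had edgeR adjusted p of 3.96e-08, 6.56e-08 and 0.00111. MEPCE followed at −0.98 (SE 0.18, adjusted p = 2.66e-04), and HEXIM2 at 5.32 (SE 0.86, adjusted p = 8.02e-05). All 5 passed under every other setting and without any 1 library. For CDK9, CCNT1 and CCNT2 the interaction was 0.29, −0.27 and 0.17 and did not pass, and for HEXIM1 it was −0.48 (adjusted p = 0.0529). With library totals or against ribosomal protein mRNAs all 9 passed, 8 of them lower, with CDK9 and CCNT2 changing sign.

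Ratios between members of the same library do not depend on the scaling. Per kb of exon, MEPCE stood at 5.23, 5.52 and 5.58 times LARP7 in DMSO, 0.690, 0.475 and 0.451 times at 4 h of THZ1, and 2.09, 2.62 and 2.55 times at 24 h. The order of these 2 mRNAs was thus turned at 4 h and back again at 24 h, with no overlap between the groups. In YKL-5-124 the ratio was 3.79, 3.67 and 4.28 at 4 h, below DMSO, and 7.09, 8.39 and 6.74 at 24 h, above it. The inhibitor-to-kinase ratio, HEXIM1 to CDK9, was 0.748, 0.805 and 0.806 in DMSO and 2.08, 2.27 and 2.29 after 24 h of YKL-5-124. In the THZ1 24 h group it was 1.35, 1.19 and 1.05, and in the YKL-5-124 4 h group 0.892, 0.998 and 0.936, both groups wholly above DMSO. After 4 h of THZ1, at 0.730, 1.09 and 0.787, it overlapped DMSO.

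Among the cyclins the balance moved toward CCNT2 under THZ1. The ratio of CCNT2 to CCNT1 was 0.477, 0.453 and 0.449 in DMSO, 0.668, 0.660 and 0.694 after 4 h of THZ1 and 0.759, 1.34 and 1.18 after 24 h. It was 0.526, 0.529 and 0.538 after 24 h of YKL-5-124, a narrower shift but also without overlap with DMSO. AFF4 to CCNT1 was 1.03, 1.16 and 0.954 in DMSO and 2.78, 2.88 and 2.99 after 4 h of THZ1, and returned to 0.955, 1.29 and 1.22 after 24 h. With 3 libraries against 3 an exact permutation test cannot give a p below 0.1, so these ratios are given as values. Each shows that the 2 mRNAs changed unequally, not which of them changed.

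**Figure D4:**
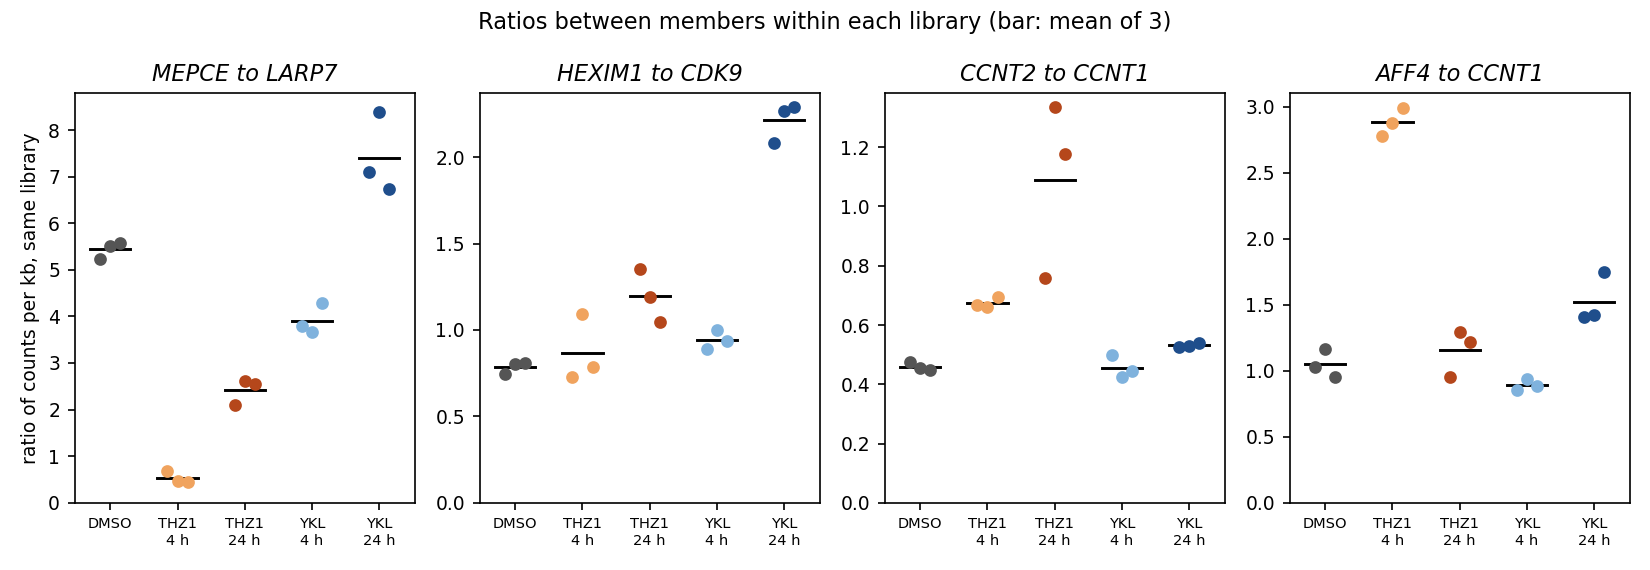
Ratios between pairs of members within each library, from counts per kb of exon; each point is 1 library and each bar the mean of 3. MEPCE to LARP7 falls from 5.44 in DMSO to 0.538 after 4 h of THZ1, and HEXIM1 to CDK9 rises from 0.786 in DMSO to 2.21 after 24 h of YKL-5-124.

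After 24 h of THZ1 the size of the changes from DMSO depended on the scaling more than their direction did. For THZ1 24 h against DMSO, 7 of the 9 members kept their sign and their call under every setting; HEXIM1 lost its call with RLE and upper-quartile factors and in DESeq2, and HEXIM2 against ribosomal protein mRNAs. CCNT1, for example, ranged from −4.42 to −1.83 on the log2 scale. For YKL-5-124 24 h against DMSO, HEXIM1 and AFF4 rose under all settings, while the sign of CDK9, CCNT1, LARP7 and MEPCE depended on the scaling.

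**Figure D5:**
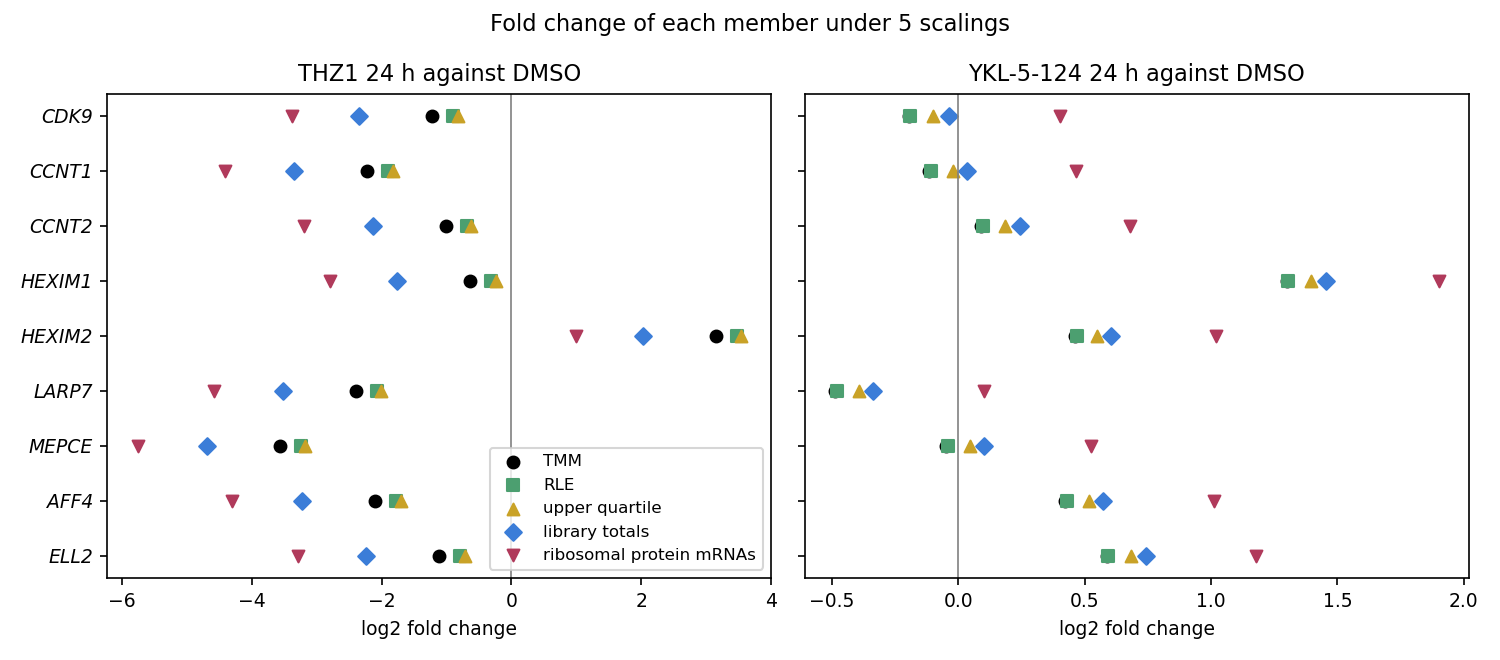
Log2 fold change of each member to DMSO after 24 h of THZ1 (left) and of YKL-5-124 (right) under 5 scalings; the axes differ in range. After THZ1 8 members lie left of 0 under each scaling and HEXIM2 right of it; after YKL-5-124 HEXIM1 lies between 1.30 and 1.90.

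Other proteins of the same pathway were read from 3 lists, chosen with earlier results of these data known. Of 12 further components of the super and little elongation complexes, which serve mRNA and small nuclear RNA genes, 9 were tested and AFF2, AFF3 and ELL3 had too few counts. After 4 h of THZ1, 3 fell and 1 rose, and after 24 h 8 fell, with median log2 fold changes of −0.46 and −1.51. In DESeq2 the count of falls at 24 h was 6. Of all genes tested, 25.1% fell and 16.9% rose at 4 h and 44.0% fell at 24 h, so the 4 h counts are near that background. ELL, a paralog of ELL2, fell from 22.4 ± 3.39 CPM in DMSO to 8.56 ± 3.93 after 4 h (log2 fold change −1.39, SE 0.25, edgeR adjusted p = 4.36e-04). ICE1, the scaffold of the little elongation complex, went from 119 ± 20.1 CPM to 65.9 ± 16.3 at 4 h and 15.1 ± 0.408 at 24 h, falls of 0.85 and 2.97 on the log2 scale. The YEATS-domain reader MLLT1 fell at 24 h (log2 fold change −2.83), from 19.0 to 50.3 CPM in the DMSO libraries to 3.23 to 6.13. YKL-5-124 changed 0 at 4 h in edgeR (also 0 at an unadjusted p under 0.05 and in DESeq2), and at 24 h ICE2 and ZC3H8 fell by 0.87 and 0.71 (12.7% of all genes fell).

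The second list held 13 proteins that recruit P-TEFb or release it from 7SK, all tested. After THZ1, 4 fell and 2 rose at 4 h, and 7 fell and 3 rose at 24 h, both near the shares over all genes (25.1% and 16.9%, then 44.0% and 32.3%). In DESeq2 3 fell and 5 rose at 4 h, and 5 fell and 4 rose at 24 h. JMJD6, an enzyme reported to act on the 7SK cap, fell after 4 h of either compound: from 26.3 ± 2.23 CPM in DMSO to 4.405 ± 0.636 after THZ1 (−2.57, SE 0.15, edgeR adjusted p = 6.97e-09) and to 12.9 ± 1.58 after YKL-5-124 (−1.03, SE 0.14, adjusted p = 0.00577). It was the only gene of the list that YKL-5-124 changed at 4 h, and from 4 h to 24 h it rose after both compounds, by 2.42 after THZ1 and 1.45 after YKL-5-124. BRD3, a BET bromodomain protein, fell by 2.52 after 24 h of THZ1, and NUFIP1 had log2 fold changes of −1.25 at 4 h and −2.497 at 24 h. After 24 h of YKL-5-124, 2 rose and 2 fell (8.92% and 12.7% of all genes), the latter being DDX21 (−0.85) and SRSF2 (−0.57, or 0.00 against ribosomal protein mRNAs). HTATSF1 was at 377 ± 13.3 CPM after 24 h of THZ1 and 74.1 ± 2.22 after YKL-5-124, a difference of 2.35 under TMM and of −0.43 against ribosomal protein mRNAs.

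The third list held RNA-binding proteins that bind 7SK when P-TEFb is released, and La (SSB), of which 5 of 6 entries were tested. After 4 h of THZ1, 4 rose and 0 fell (edgeR, also 0 at an unadjusted p under 0.05 and in DESeq2), and after 24 h 3 rose and 1 fell. In DESeq2 4 rose and 0 fell at 24 h. The size of the 4 h rises depended on the scaling. Over the 9 other settings HNRNPA2B1 lay between 0.10 and 0.70 and SSB between 0.07 and 0.66, each passing in 8. Another of the 4 turned negative against ribosomal protein mRNAs (−0.11). The shares over all genes were 16.9% higher and 25.1% lower at 4 h, and 32.3% and 44.0% at 24 h. HNRNPA2B1 went from 1254 ± 34.1 CPM in DMSO to 1916 ± 146 at 4 h and 4111 ± 280 at 24 h (log2 fold changes 0.61 and 1.71; the latter −0.48 against ribosomal protein mRNAs). HNRNPA1 rose by 0.66 after 24 h of THZ1 (reversed with library totals and against ribosomal protein mRNAs) and fell by 1.28 after 24 h of YKL-5-124, to 729 ± 25.8 CPM. HNRNPA1 has many processed copies in the genome, and no source used here says how reads with several matches were counted. After 24 h of YKL-5-124, 3 of this list fell (12.7% of all genes) and 0 rose, and at 4 h 0 changed, with the same zeros in edgeR at an unadjusted p under 0.05 and in DESeq2. SYNCRIP fell by 0.52 after 24 h of YKL-5-124 (0.08 against ribosomal protein mRNAs).

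The genes most like each member over the 15 libraries were found by Pearson's r of log2 CPM among 9138 protein-coding genes whose mean was 5 CPM or more. The libraries share groups, so r mostly reflects the group means. For HEXIM1 they were PNRC1 (r = 0.963), FBXL14 (0.956) and VGLL4 (0.951). PNRC1 had log2 fold changes to DMSO of −2.39 and −0.91 after 4 h and 24 h of THZ1 and 1.82 after 24 h of YKL-5-124. For MEPCE they were CSTF2T, ZNF212 and TRMT44 (r = 0.993, 0.992 and 0.992). TOPORS was most like CCNT1 (0.991), GPATCH3 most like CDK9 (0.981) and ZNF614 most like CCNT2 (0.976). Among the remaining members, TBC1D4 was most like LARP7 (0.997), SWAP70 most like AFF4 (0.994) and NSDHL most like ELL2 (0.974). IER2, an immediate-early gene, was most like HEXIM2 (0.950). HEXIM2 had 1 to 31 counts a library, so this r rests on few counts.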

How the data were processed

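Unnormalised counts of each gene in 15 libraries were deposited by the authors. DESeq2 1.24.0, featureCounts 1.5.0-p3, STAR 2.6.1d and the build GRCh38 are named in the submitters' processing notes. Strand and multiple-match settings are not given there, so overlapping genes cannot be told apart. Groups came from the labels. Of 58676 genes, 14461 passed filterByExpr (minimum count 10, total 15; edgeR 4.0.16, R 4.3.3). edgeR's quasi-likelihood F test was fitted to all 15 libraries with TMM scaling and group as the only factor, in 9 comparisons. P-values were adjusted by Benjamini-Hochberg across the 14461 genes, and 0.05 was the threshold. SE and 95% intervals came from this fit. Intervals of count ratios cover counting error only. Totals of 15567057 to 22869590 counts set the precision: HEXIM2 had 1 to 31 counts a library and the other members 28 to 4020. No libraries were duplicates (chi-square per degree of freedom 4.19 to 77.0 within groups). The test was tested on simulated data. Alternatives were other scalings, no filter, DESeq2 1.42.0, a replicate block, a length covariate, fitting only the groups compared, and leaving out each library. The length covariate was each library's slope of log2 CPM on exonic length, centred within its group. It therefore leaves any shift with length between groups in place.

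The members, lists, tests and settings were chosen with earlier results of these data known. All 9 members are named whatever their p. Of each list and comparison the rule allows naming the 2 called genes that moved furthest, if their mean CPM was 1 or more, and some of these are given in 1 comparison only. For each member the 3 most correlated genes with a mean CPM of 5 or more were found.

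Promoter sequences are from RefSeq.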

Additional observations from a re-analysis of the deposited data

Results flagged for a closer look

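The difference between THZ1 and YKL-5-124 was not the same at 4 h and at 24 h for 5 members, by edgeR's test of the interaction of compound and time. Of all genes tested, 31.0% passed as lower and 26.6% as higher, so 5 of the 9 members is near that background. HEXIM2 had an interaction of 5.32 on the log2 scale, from few counts. The other 4 were negative, with THZ1 lower relative to YKL-5-124 at 24 h than at 4 h: AFF4 −2.38, LARP7 −2.24, ELL2 −1.53 and MEPCE −0.98.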

How the results depend on the processing

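The count of members that passed after 4 h of YKL-5-124, 1, was 0 against ribosomal protein mRNAs, 0 when the other groups were not fitted, and 0 to 0 on leaving out each library. At 24 h of the same compound it was 3, 5 against ribosomal protein mRNAs, and 2 to 3 on leaving out each library. From 4 h to 24 h of YKL-5-124 it was 4, and 2 to 3 on leaving out each library. The interaction passed for 5 members, and for 9 with library totals. Against ribosomal protein mRNAs it also passed for 9. Against ribosomal protein mRNAs 10 member values that passed in at least 1 of the fits compared changed sign, and so did 8 that passed in neither. Such uncalled changes numbered 4 with library totals, 2 each with RLE factors, upper-quartile factors and DESeq2, and 1 without the filter. The 10 were LARP7 (0.10) and MEPCE (0.53) for YKL-5-124 24 h against DMSO, LARP7 (−0.078) and HEXIM2 (−0.026) for THZ1 against YKL-5-124 at 4 h and 24 h, CDK9 (−1.55) and HEXIM1 (−1.13) from 4 h to 24 h of THZ1, CDK9 (0.46) and CCNT1 (0.26) from 4 h to 24 h of YKL-5-124, and the interactions of CDK9 (−2.01) and CCNT2 (−2.20). With library totals CDK9 (−0.78) and HEXIM1 (−0.32) changed sign from 4 h to 24 h of THZ1, as did the interactions of CDK9 (−0.74) and CCNT2 (−0.87). With upper-quartile factors CCNT2 was 0.36 from 4 h to 24 h of THZ1. The cause was not tested. Of 540 values with 1 library left out, 505 kept their side of the threshold, 32 lost the call and 3 gained it. Among the 505 were 15 values that passed in neither fit and changed sign. HEXIM2 did not pass the filter in 3 comparisons when the other groups were not fitted.

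With the replicate number as a block no member lost a call and 3 gained one: ELL2 after 24 h of YKL-5-124 (0.58, edgeR adjusted p = 0.0112), AFF4 from 4 h to 24 h of YKL-5-124 (0.36, adjusted p = 0.0280) and the HEXIM1 interaction (−0.47, adjusted p = 0.0490). Deviations of same-numbered libraries correlated at −0.606 to 0.670 in 30 pairs, of which 21 were over 0.1. Those of libraries with different numbers correlated at −0.783 to 0.763 in 60 pairs. Of 15 libraries, 9 correlated best with their own number. All 3 same-numbered pairs were over 0.1 in 2 of 10 pairs of groups, THZ1 4 h with THZ1 24 h (0.147 to 0.436) and THZ1 24 h with YKL-5-124 4 h (0.154 to 0.438). The block changed no member's call from 4 h to 24 h of THZ1. Pairing over the whole series was not shown, and the labels do not give it.

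Counts over all genes, as higher and lower, were as follows with TMM, with library totals and against ribosomal protein mRNAs. They were 2439 and 3630, 583 and 4631, and 29 and 5517 for THZ1 4 h against DMSO, and 4668 and 6356, 2266 and 9384, and 574 and 11726 for THZ1 24 h. With YKL-5-124 for 24 h they were 1290 and 1839, 2093 and 1186, and 5066 and 203 (upper-quartile factors 1759 and 1382, length covariate 2571 and 3514, without DMSO replicate 1 867 and 1204, without DMSO replicate 3 766 and 1166). Between the compounds they were 1649 and 3172, 199 and 4168, and 26 and 4461 at 4 h (RLE factors 2524 and 2884, DESeq2 2833 and 3091, length covariate 3572 and 4157), and 4601 and 6376, 1998 and 9927, and 278 and 12944 at 24 h. From 4 h to 24 h they were 4543 and 5166, 2292 and 8175, and 754 and 10390 for THZ1 (upper-quartile factors 5750 and 3921), and 1333 and 1716, 2286 and 1044, and 6746 and 135 for YKL-5-124 (length covariate 2636 and 3421). For the interaction they were 3842 and 4489, 1558 and 7917, and 198 and 11361 (upper-quartile factors 4706 and 3536). For YKL-5-124 4 h against DMSO, 8 and 67 became 74 and 296 in DESeq2, 39 and 151 without the filter, 296 and 724 with the length covariate, 14 and 126 with the replicate block, and 1 and 14 when the other groups were not fitted. Without DMSO replicate 1 or 3 or YKL-5-124 4 h replicate 2 or 3 they became 3 and 30, 2 and 21, 0 and 8, and 3 and 23. Depth limits HEXIM2 most, with 1 to 31 counts a library.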
